A study of Drosophila melanogaster with 2 samples.

Results

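The cytoplasmic ribosomal protein genes of Drosophila melanogaster were examined for promoter peaks of the chromatin protein Ravus. They were taken as the protein-coding genes of the Ensembl BDGP6 annotation whose symbol is RpL or RpS followed by a number or a capital letter and then by letters and digits only, with no hyphen, which gave 85 genes of 13968. Of these, 48 carry RpL symbols (the large subunit, the stalk genes RpLP0, RpLP1 and RpLP2 included) and 37 carry RpS symbols (the small subunit). The rule uses symbols and no measured value, although it was set with earlier results of these data known.

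The study profiled 1 group of 2 biological replicates by chromatin immunoprecipitation with sequencing (ChIP-seq), which locates a protein on the genome by sequencing the DNA that is precipitated with it. The chromatin came from whole embryos aged 0 to 24 h of the fly strain Ravus-GFP, which carries an insertion targeting Ravus and makes a fusion of Ravus with enhanced green fluorescent protein, precipitated with an antibody against GFP. Chromatin was sonicated to fragments of 200 to 800 bp, the sex of the embryos was not collected, and both replicates carry the same donor label. There is no second genotype, tissue or time, and a whole-embryo peak does not show which cells or stages it came from. On dm6, 8 peak lists were deposited: a thresholded and a ranked list of each replicate, and, from both replicates, a conservative list, a further thresholded list and a pair of ranked lists. A peak's signal is the authors' value, no source used here gives its scale, and library depth is unknown. A promoter without a listed peak therefore cannot be told from one below the detection limit.

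Cytoplasmic ribosomal proteins form the large and small subunits together with ribosomal RNA, and they are needed in near-equal amounts in every growing cell. Their genes are among the most actively transcribed in the embryo. In flies most of them start transcription at a pyrimidine-rich initiator, the TCT motif, in place of the usual initiator, and loss of one copy of many of them gives the Minute phenotype of slow growth and thin bristles.

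Sequences around the summits are shown first because base composition set most of these peaks apart from most other Ravus promoter peaks in the same list. Each is dm6 sequence from RefSeq, 5′ to 3′ on the gene's strand, the conservative summit with 50 bases to either side, or the part of this outside annotated exons (RpS27). Capitals mark GCAAC or its complement GTTGC, TATCGATA (the DNA replication-related element, DRE), and TATAAA or its complement TTTATA. RpL34b and RpL32 carried the strongest conservative peaks among ribosomal protein genes whose full window could be shown, RpL23A and RpS27 are GC-rich, and RpL28 and RpS25 hold a DRE. RpL34b and RpL32, at 33.7% and 39.6% GC, are among the lowest in GC of the conservative ribosomal protein summits.
RpL34b (chr3R:9401287-9401387, minus strand): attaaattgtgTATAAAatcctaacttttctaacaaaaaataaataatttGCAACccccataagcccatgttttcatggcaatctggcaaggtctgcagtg
RpL32 (chr3R:30046262-30046362, minus strand): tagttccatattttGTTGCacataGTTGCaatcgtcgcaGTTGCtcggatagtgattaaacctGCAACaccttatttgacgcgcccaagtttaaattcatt
RpS27 (chr3R:25247515-25247573, minus strand): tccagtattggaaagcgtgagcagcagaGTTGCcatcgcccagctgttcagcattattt
RpL23A (chr3L:1668697-1668797, minus strand): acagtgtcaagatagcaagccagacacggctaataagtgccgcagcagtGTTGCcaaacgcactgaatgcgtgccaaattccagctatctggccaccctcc
RpL28 (chr3L:3222986-3223086, minus strand): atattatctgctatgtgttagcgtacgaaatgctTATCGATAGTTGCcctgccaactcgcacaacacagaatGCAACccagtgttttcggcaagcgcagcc
RpS25 (chr3R:11216299-11216399, minus strand): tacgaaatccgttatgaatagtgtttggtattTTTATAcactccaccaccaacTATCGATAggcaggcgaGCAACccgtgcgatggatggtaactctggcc
For contrast, the window of CG14100, one of the strongest Ravus promoter peaks in the same list with a signal of 1170, is rich in A and T with no letters marked.
CG14100 (chr3L:19590563-19590663, minus strand): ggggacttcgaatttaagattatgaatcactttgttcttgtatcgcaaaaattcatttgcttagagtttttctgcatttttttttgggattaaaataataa

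The conservative list, the main peak set, held a summit within 500 bp of a start site of 15 of the 85 ribosomal protein genes. That is 17.6% (exact Clopper-Pearson 95% interval 10.2 to 27.4), beside 7.09% of all 13968 protein-coding genes. Each of the 15 genes had its own peak. The intervals here and below cover counting error over genes only, and genes are not independent samples. The further thresholded list held 20 (23.5%, 15.0 to 34.0) beside 8.07% of all genes, and 14 of the 15 genes were in both lists. RpL28 was the exception.

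The replicates differed in how many of these genes they called. The thresholded list of replicate 1 held 12 (14.1%, 7.51 to 23.4) beside 6.99% of all genes. That of replicate 2 held 27 (31.8%, 22.1 to 42.8) beside 8.82%. Replicate 2 thus listed more than double the ribosomal protein genes of replicate 1, while its share of all genes was only slightly higher. The thresholded lists of both replicates held 10 of them (11.8%), beside 6.04% of all genes. That of replicate 1 alone held 2 (RpL28 and RpL8; 2.35%) beside 0.959%, and that of replicate 2 alone held 17 (20%) beside 2.78%.

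The ranked lists go deeper, to peaks that did not pass the authors' limit. The first series ranked list held 52 of the 85 (61.2%, 50 to 71.6) beside 22.2% of all genes, and the second held 54 (63.5%, 52.4 to 73.7) beside 22.0%. The replicates' own ranked lists held 56 (65.9%, 54.8 to 75.8) beside 45.1% in replicate 1 and 70 (82.4%, 72.6 to 89.8) beside 46.9% in replicate 2. In the 8 lists the share of ribosomal protein genes was above that of all genes each time, although the lists come from the same 2 libraries. In all, 29 genes (34.1%) were in at least 1 thresholded list, beside 10.1% of all genes. Another 46 (54.1%) were in ranked lists only, beside 52.5%, and 10 (11.8%) were in none, beside 37.4%. Ribosomal protein genes had a median of 2 annotated start sites and all genes a median of 1, which gives a summit more places to fall near. With the outermost 5′ end of each gene as its only start site the conservative count was again 15, beside 5.96% of all genes.

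**Figure D1:**
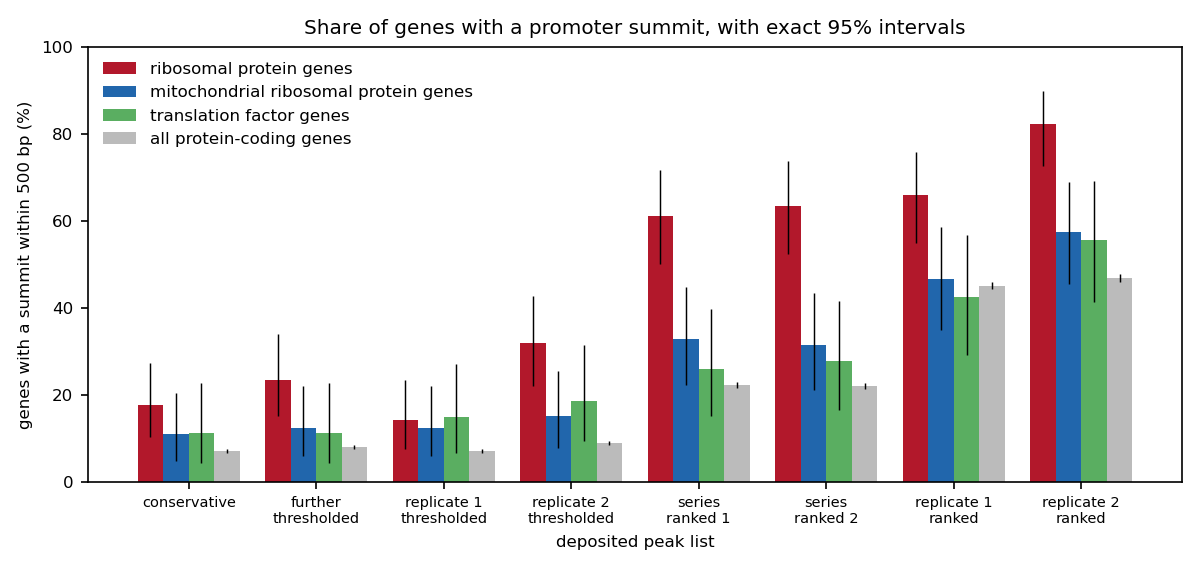
Bars give the share of genes (%) with a summit within 500 bp of a start site in each deposited peak list, for ribosomal protein, mitochondrial ribosomal protein, translation factor and all protein-coding genes; lines are exact 95% intervals. The ribosomal protein genes stand highest in 7 of the 8 lists, from 17.6% in the conservative list to 82.4% in the ranked list of replicate 2; in the thresholded list of replicate 1 the translation factor genes stand slightly higher.

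Peaks at ribosomal protein genes were of middling strength. Their median signal in the conservative list was 130.4, beside 145.7 over all genes with a promoter summit there, and the strongest reached 216.2 where the list's highest signal was 1414. When peaks under the list's median signal were left out, 6 of the 85 genes still had one, all of them among the 15. The share of all protein-coding genes that did was 3.94%. The 6 were RpL7, RpL34b, RpL32, RpS27, RpL23A and RpS20.

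RpL7, a large subunit protein, had the strongest peak at a signal of 216.2 (rank 293 of 1474). Its signal in the ranked lists was 64.9 in replicate 1 and 156 in replicate 2, and its summit lay 22 bp downstream of a start site, in a 5′ UTR of the annotation. In the list of replicate 1 its summit was 27 bp further downstream, 47 bp upstream of the other of its 2 annotated start sites. RpL34b, 1 of 2 genes for the same large subunit protein, reached 195.6 (rank 356), with 89.2 in replicate 1 and 114 in replicate 2. RpL34a was in the ranked lists only, at 23.7 in replicate 1 and 32.3 in replicate 2, so the copies were far apart in both replicates. RpL32, a large subunit protein whose mRNA is a common reference in fly expression work, reached 191.9 (rank 374), with 72.0 in replicate 1 and 122 in replicate 2.

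RpS27, a small subunit protein, had a signal of 170.1 with its summit 9 bp upstream of the start, and 73.0 and 96.4 in replicates 1 and 2. RpL23A, which lies at the exit of the peptide tunnel, had 146.3, and 59.3 and 95.1 in the replicates. RpS20, of the small subunit head, had 140.6, and 54.7 and 82.4 in the replicates. All 6 genes had the higher value in replicate 2, as had 816 of 969 genes with a conservative summit and a peak matched between replicates. The scales of the replicates' lists need not match. The next 3 genes, RpL14 (130.7), RpS21 (130.4) and RpL41 (115.5), lay between 62.6 and 50 in replicate 1 and between 69.1 and 57.8 in replicate 2. RpS21 and RpL14 differed by less than 1 signal unit in the conservative list, so their order carries no weight.

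The last 6 genes lay close together, from 93.4 at RpL23 and 92.7 at RpL28 through 90.7 at RpL22, 85.7 at RpS25 and 84.3 at RpL11 to 82.9 at RpS16. RpL11 is part of the 5S ribonucleoprotein particle, and RpL22 has a germline-enriched relative in flies. RpL28, with 44.9 in replicate 1 and 44 in replicate 2, was the only conservative gene of the 15 that was not higher in replicate 2. Over all such genes with a conservative summit, 816 of 969 were higher there. The authors' limit cut through this range: the −log10 of the irreproducible discovery rate (IDR, how poorly a peak's rank repeats between replicates) was 2.02 at RpS16, just inside the limit of 2, and 1.57 at RpS28b, just outside with a signal of 92.9. RpL24, outside at 1.3, had a higher signal of 109.8 than 6 of the listed genes, with 29.7 in replicate 1 and 82.1 in replicate 2.

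**Figure D2:**
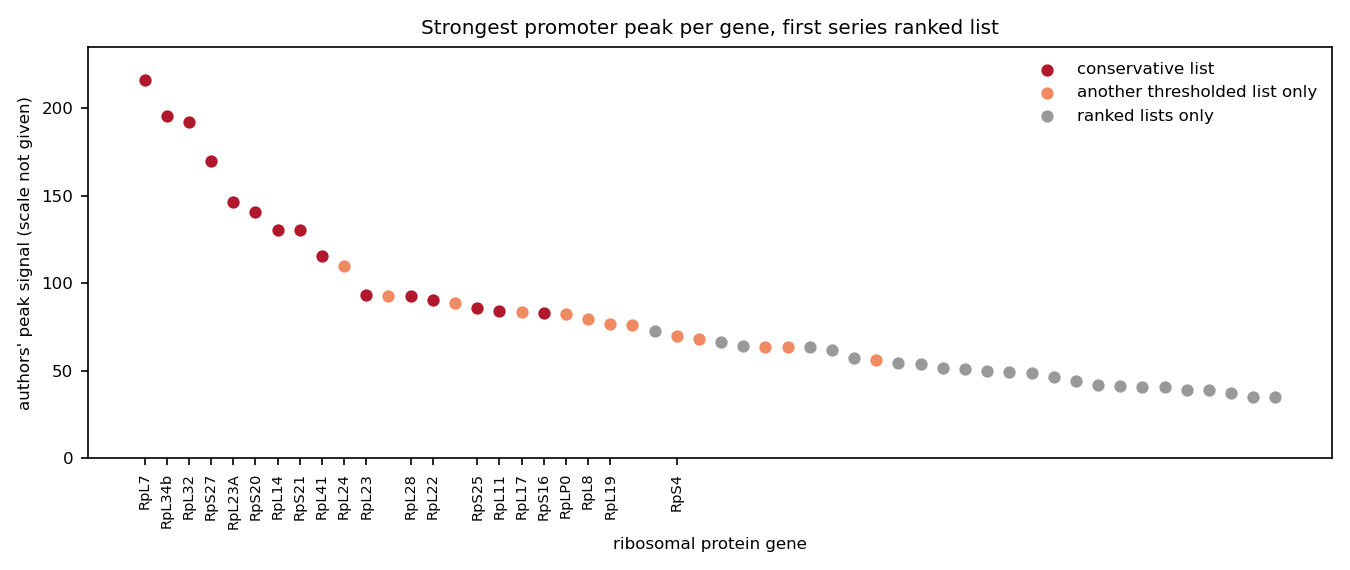
Each point is the strongest promoter peak of 1 ribosomal protein gene in the first series ranked list, ordered by the authors' signal on the vertical axis, for the 52 genes with one; names are given for genes of the conservative or the further thresholded list. Genes of the conservative list run from 216.2 (RpL7) to 82.9 (RpS16) and mix with genes of other thresholded lists below 109.8 (RpL24).

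Another 14 genes were in a thresholded list other than the conservative one. The further thresholded list added RpL24, RpL17 (83.4), the stalk base gene RpLP0 (82.2), RpL8 (79.7), RpL19 (76.8) and RpS4 (69.8). The remaining 8 were thresholded in replicate 2 alone, among them RpS28b (62.1 in that replicate), RpS5a (60.1), RpL4 (58.2), RpL27 (51.7), RpL31 (47.7), RpS15Aa (40.4) and RpL36A (35.0). Of those that replicate 2 alone thresholded, RpL27, RpL4, RpL31, RpL17 and RpL19 had only 11.3 to 13.2 in replicate 1, at ranks from 27086 to 35511 of 52143.

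Among genes in ranked lists only, the 5 strongest in the first series ranked list were RpL13A (72.8), RpS29 (66.2), RpS23 (64.1), RpS10b (63.6) and RpL30 (61.9). The 10 genes in no list included RpL10Aa, RpL21, RpL29, RpL40, RpLP1, RpS15Ab, RpS18, RpS19b and RpS3. RpL40 encodes a fusion with ubiquitin, and RpLP1 is a stalk protein. For RpL10Aa, RpS15Ab, RpS19b and other genes with a close copy, no source used here says how reads that match both copies were placed, so an absent peak is uncertain, and so is the split between RpL34a and RpL34b.

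By subunit, the conservative list held 10 of 48 large subunit genes (20.8%, 10.5 to 35.0) and 5 of 37 small subunit genes (13.5%, 4.54 to 28.8), and these intervals overlap. None of the 3 stalk genes and neither of the ubiquitin fusions RpL40 and RpS27A was in it. The list held 7.09% of all genes, so with so few genes these absences carry little weight. Of the 16 genes with symbols ending in a or b, which mark gene copies, 1 (RpL34b) was listed (6.25%, 0.158 to 30.2). Of the other 69, 14 were listed (20.3%, 11.6 to 31.7), and these intervals overlap. In the ranked list of replicate 1 the order was reversed, with 12 of 16 copies beside 44 of the other 69. The share of copies was the lower one in every other list. By chromosome arm, the conservative list held 2 of 17 ribosomal protein genes on 2L and 4 of 18 on 2R. It held 3 of 14 on 3L, 5 of 22 on 3R, 1 of 13 on X and 0 of 1 on chromosome 4. The same list held 7.49%, 6.49%, 8.14%, 7.10%, 6.38% and 1.25% of all protein-coding genes on these arms, in that order.

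Widening the window to 1000 bp added 1 gene, RpS28b, whose further peak lay 788 bp upstream with a signal of 127.5, and the share of all genes rose to 8.38%. Narrowing it to 250 bp kept the count at 15, beside 5.58% of all genes. A peak interval that covered the start site itself was found at 15 ribosomal protein genes, beside 2.81% of all genes.

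Ravus summits lay nearer the start of ribosomal protein genes than of other genes. The median position in the conservative list was 76 bp upstream of the gene's nearest start site (quartiles −102 and −37.5 bp), beside 150 bp upstream over all 991 genes with such a summit (quartiles −221 and −96 bp). Of the 15 genes, 11 (73.3%) had the summit within 100 bp, beside 21.5% of all genes. The summit was upstream at 14 (93.3%), much as over all genes (91.3%). In the first series ranked list 78.8% of the 52 genes were within 100 bp, beside 25.9%. Translation factor genes had 4 of 6 within 100 bp in the conservative list, and mitochondrial ribosomal protein genes 2 of 8. Replicate 1 alone gave a median 66 bp upstream and replicate 2 alone 43 bp upstream.

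**Figure D3:**
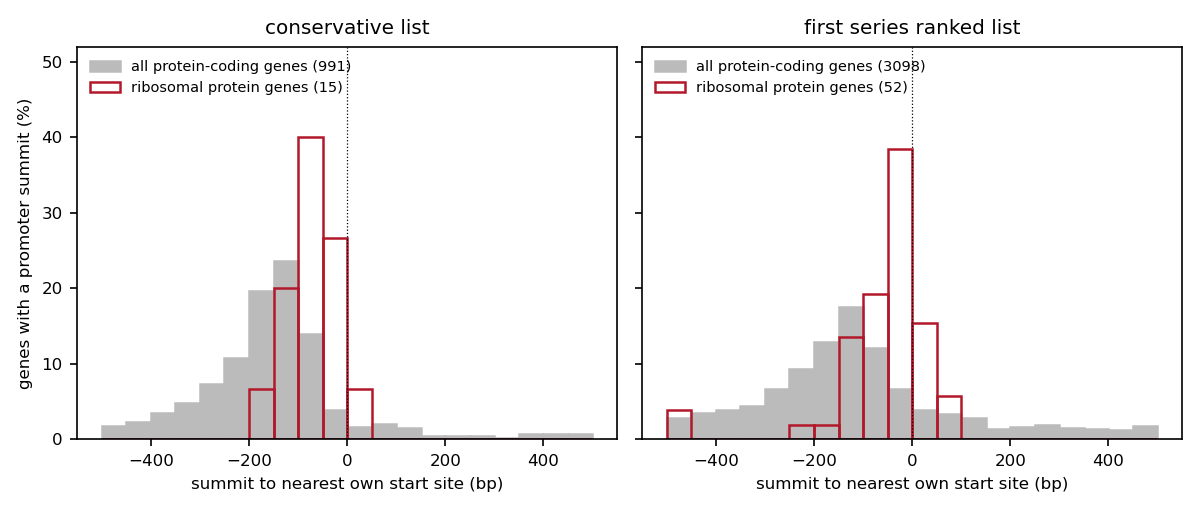
Bars give the share of genes (%) by the distance in bp from the promoter summit to the gene's nearest own start site, in steps of 50 bp, with negative values upstream; outlined bars are ribosomal protein genes and filled bars all protein-coding genes, and the numbers in the key are genes. In the conservative list 40.0% of the ribosomal protein genes fall between 100 and 50 bp upstream, beside 14.0% of all genes.

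Many of these genes face another gene. Within 1000 bp, 52 of the 85 (61.2%) had a protein-coding start site on the opposite strand pointing away, beside 36.2% of all genes. The conservative list held 12 of these 52 (23.1%) and 3 of the other 33 (9.09%), and over all genes it held 12.7% of divergent and 3.9% of other genes. A peak between 2 start sites cannot be given to one gene from its position alone. In the conservative list the gene's own start was the nearest in 15 of 15. The same count over all genes is not reported here for any list, so these counts show nothing particular to ribosomal protein genes. The margin was small at RpL41, where the summit lay 88 bp from RpL41 and 94 bp from the sodium channel gene NaCP60E. At RpL32 the distances were 151 bp and, to CG7943, 158 bp.

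In the thresholded list of replicate 2 the own start was nearest in 24 of 27, and the exceptions included RpL32 and RpL41, where CG7943 and NaCP60E were nearer. RpL14 shared its promoter with Nelf-E, a subunit of a complex that holds RNA polymerase II paused, 76 bp from the summit. RpL28 faced eIF1, a factor in start codon choice, 305 bp from the same peak, so this peak counts for a translation factor too.

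**Figure D4:**
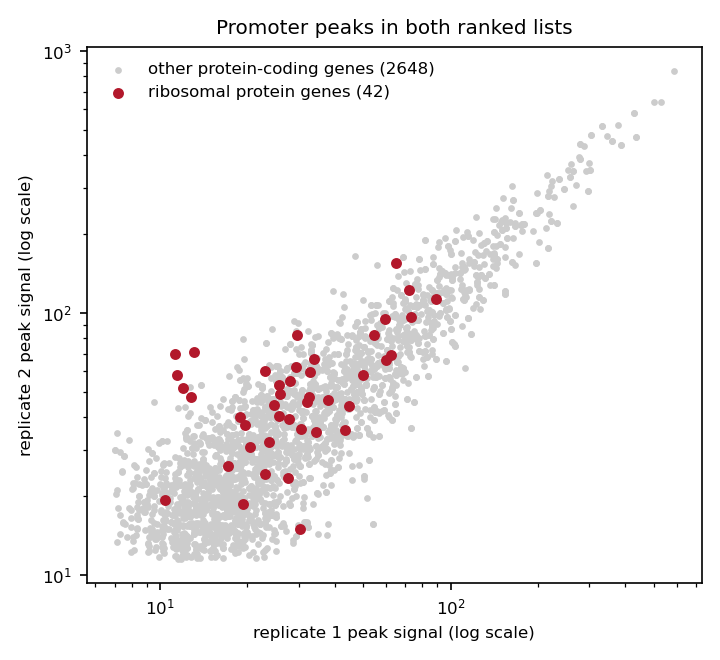
Each point is 1 protein-coding gene, by the signal of its strongest promoter peak in the ranked list of replicate 1 (horizontal) and replicate 2 (vertical), both on log axes, where the summits lay within 100 bp of each other. Of the 42 ribosomal protein genes 37 were higher in replicate 2, beside 2043 of all 2690 genes. Near the left edge, RpL4, RpL17, RpL19, RpL27 and RpL31 were at 11.3 to 13.2 in replicate 1. In replicate 2 these 5 were at 47.7 to 71.1, while RpS30, at 10.4 in replicate 1, was at 19.4.

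The strongest promoter peak was in both replicates' ranked lists, with summits within 100 bp, for 42 ribosomal protein genes and 2690 protein-coding genes in all. The 2 scales need not match, so the ratio is read against that of all genes. The median log2 ratio of replicate 2 to replicate 1 was 0.63 (SD 0.75 over 42 genes), beside 0.36 (SD 0.55 over 2690 genes), and 29 of the 42 lay above the median of all genes. It ran from −1.02 at RpL13 to 2.63 at RpL19. For the 15 conservative genes the median was 0.50 (SD 0.35), beside 0.33 (SD 0.37) over 969 genes, a gap well within the spread among genes. Across genes, which are not independent replicates, Spearman's rho between the replicates was 0.477 over the 42, beside 0.842 over all 2690. Over the 15 conservative genes it was 0.818, beside 0.839. With 2 libraries no test between them was possible.

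Summits at ribosomal protein genes were richer in G and C than most Ravus promoter summits. The summit with 50 bp to either side held, at the 15 conservative summits, 48.4% GC ± 8.79 (SD over 15 peaks), from 31.7% at RpS20 to 62.4% at RpL7. The other 705 conservative promoter peaks held 29.7% ± 8.65 (SD), and the 492 of them within the same range of signal, 82.9 to 216.2, held 30.3% ± 9.2. The flanks, windows of the same width centred 300 bp to either side, held 44.6% in both classes. The median longest run of A and T was 6 bp at ribosomal protein genes and 12 bp at the others. The 8 conservative peaks of mitochondrial ribosomal protein genes held 24.0% ± 5.18.

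The 15 summits did not all share this. RpS20 (31.7%), RpL34b (33.7%), RpL32 (39.6%) and RpL14 (41.6%) were the lowest in GC, and RpL34b held a run of 16 A or T bases. These 4 genes each had a divergent coding start within 200 bp of the summit, as did RpL7, RpL41, RpS25 and RpS27. The latter genes had 46.5% to 62.4% GC, and the same count over other promoter peaks is not reported here. At 11 of the 15, GC was at or above 44%, beside 5.96% of the other promoter peaks, and at 11 of the 15 it was above that of the flanks, beside 9.36%. The mean difference from the flanks was 3.83 percentage points, beside −14.9 at the other promoter peaks. It turned to −0.56 when the flanks were centred 500 bp away. Taken over other genes, the value went from −14.7 to −15.5 with that change.

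Peaks outside the conservative list give the same measure on other genes. The 13 further peaks of ribosomal protein genes thresholded in replicate 2 held 49.7% ± 6.13, all 13 above their flanks, where 205 such peaks of other genes held 34.0% ± 11.0 and 26.3% were above theirs. The 37 further peaks of ribosomal protein genes in the first series ranked list held 42.4% ± 11.1, beside 39.6% ± 12.5 at 1617 others. These sets share genes. At that depth of the list the GC of the 2 classes differed by less than the spread among peaks. The mean difference from the flanks was 3.49 points at the 37, beside −3.82 at the others. Of the 37, 67.6% were above their flanks, beside 40.9% of the others. RpL8, in the thresholded list of replicate 1 but not of replicate 2, was at 22.8% with a run of 31 A or T bases in its window of the first series ranked list.

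**Figure D5:**
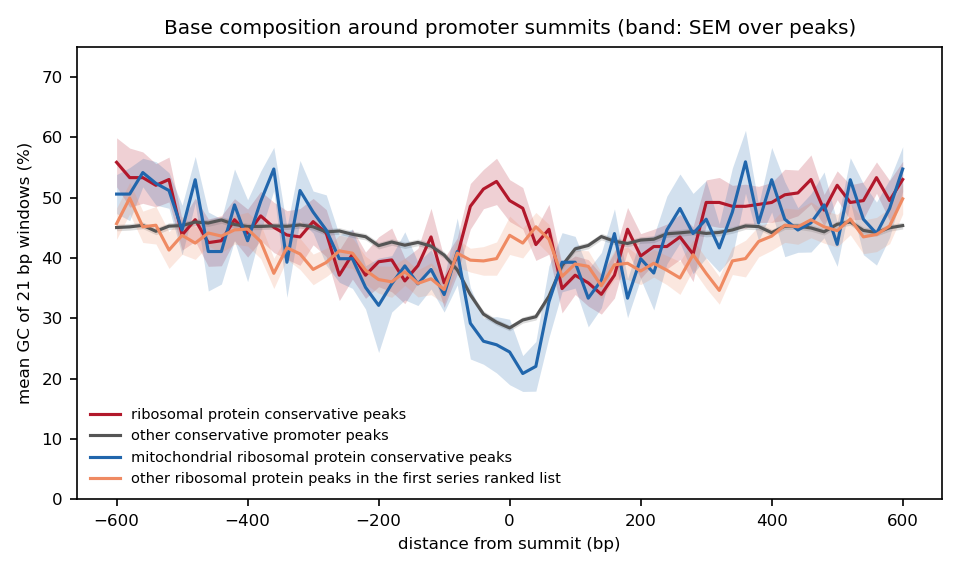
Lines give the mean GC (%) of 21 bp windows by distance from the summit in bp, and bands the standard error over peaks, for 15 ribosomal protein, 705 other and 8 mitochondrial ribosomal protein promoter peaks of the conservative list and 37 further ribosomal protein peaks of the first series ranked list. GC is high at the ribosomal protein summits (48.4% within 50 bp) and low at the other promoter summits (29.7%).

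Known promoter motifs were counted in the summit windows on both strands. TATCGATA, the element of the replication and growth factor Dref, was in 3 of 15 (RpL28, RpL41 and RpS25; 20%), beside 0.567% of the other conservative promoter peaks. In the 37 further peaks it was in 16.2%, beside 1.48% of other promoter peaks of the first series ranked list. GGTCACACT, part of the motif bound by M1BP, was in RpL7 alone of the 15 and in none of the 705, and in 10.8% of the 37 further peaks, beside 0.495%. CACGTG, the E-box of Myc and Max, was in RpL7 and RpL11 (13.3%), beside 0.851%. TATAAA was in 13.3%, beside 29.6%, and ATATATAT and GAGAG were in none of the 15, beside 4.11% and 7.38%. In the 37 further peaks CACGTG was in 2.7% beside 1.11%, TATAAA in 8.11% beside 17.4%, and GAGAG in 8.11% beside 11.6%, while ATATATAT went the other way from the 15, in 8.11% beside 2.1%.

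GCAAC and CGCAGC were picked after the 15 windows were seen, so their counts there, 8 of 15 each (53.3%), describe the choice. In the 37 further ribosomal protein windows GCAAC was in 35.1% beside 20.4% of other promoter peaks, and CGCAGC in 13.5% beside 5.38%. In the window printed above RpL32 has GCAAC on one strand or the other 4 times. A match of letters is a description and does not show binding.

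The promoters as a whole, from 250 bp before to 50 bp after the outermost start, were then compared with all genes. The core of the TCT initiator, TCTTT or CCTTT on the gene's strand within 5 bp of the start, was at 54 of 85 ribosomal protein genes (63.5%), beside 3.07% of all protein-coding genes. It was at 10 of 15 genes with a conservative summit (66.7%) and 44 of 70 without (62.9%), and at 6 of the 10 genes in no list. TATCGATA was in 29.4% of the 85 promoters, beside 9.36% of all, with 4 of 15 (26.7%) and 21 of 70 (30.0%) in listed and unlisted genes. TATAAA was in 50.6% beside 45.9%, CACGTG in 8.24% beside 4.23%, GGTCACACT in 10.6% beside 6.04%, ATATATAT in 4.71% beside 6.02%, and GAGAG in 17.6% beside 29.8%. Of the letters picked from the 15 windows, GCAAC was in 51.4% of the 70 promoters without a conservative summit, beside 47.4% of all genes, and CGCAGC was in 12.9% of them, beside 14.1%.

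Start sites are printed for 4 listed genes, 21 bases each on the gene's strand with the TCT core in capitals. The start shown is the outermost annotated one of each gene. The first 3 have the core there, and RpS27, which has 2 annotated starts, does not.
RpL14 (chr3L:8600996-8601016, plus strand): aaaaaagtTCTTTccttctct
RpL32 (chr3R:30046151-30046171, minus strand): ccaccagcttttTCTTTtcgc
RpS25 (chr3R:11216277-11216297, minus strand): tttccgccctccaTCTTTctg
RpS27 (chr3R:25247504-25247524, minus strand): agcattatttagtgcattctc

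In the thresholded lists and the ranked list of replicate 1, other translation machinery genes had shares whose intervals overlap that of the 85. The conservative list held 8 of 73 mitochondrial ribosomal protein genes (11.0%, 4.85 to 20.5), 6 of 54 translation factor genes (11.1%, 4.19 to 22.6) and 4 of 37 ribosome biogenesis factors (10.8%, 3.03 to 25.4), beside the same 7.09% of all genes. In the first series ranked list the 85 genes stood at 61.2% (50 to 71.6), beside 22.2% of all genes. There mitochondrial ribosomal protein genes stood at 32.9% (22.3 to 44.9) and translation factor genes at 25.9% (15.0 to 39.7). Neither interval reaches that of the 85. Ribosome biogenesis factors stood at 37.8% (22.5 to 55.2), which overlaps it. The strongest conservative peaks of these other genes exceeded every cytoplasmic ribosomal protein gene. Mitochondrial mRpL41 reached 1133, mRpS10 845.0, mRpS23 780.5 and mRpL23 652.9, and the median of the 8 was 466.6. eIF6, which keeps the subunits apart and is in both of the last lists, reached 819.3, while the elongation factor subunit gene eEF1gamma had 153.4, eIF5B 128.9 and eIF3c 126.2. The biogenesis genes Ns2, pes and NHP2 had 214.1, 194.4 and 98.4.

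Of 14 regulators of ribosomal protein gene expression, 2 (14.3%, 1.78 to 42.8) were in the conservative list. They were REPTOR, a transcription factor under TOR signalling, at 332.2, and Irbp18, the partner of Xrp1, at 184.7. Max was added by the further thresholded list at 91.2, and M1BP was in the thresholded list of replicate 1 at 50.3. The 8 relatives with similar symbols outside the naming rule, sta (the gene of the RpSA protein) included, were in none of the 4 thresholded lists. Those lists held 6.99% to 8.82% of all genes, so with 8 genes this absence carries little weight. The first series ranked list held 3 of the 8 (37.5%, 8.52 to 75.5), beside 22.2% of all genes.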

How the data were processed

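Peak lists of 2 ChIP-seq samples (1 group) were analysed. The members and comparison lists were chosen with earlier results of these data known. Each peak's deposited signal is the authors' value, and the score used from the deposited ranked lists is the −log10 IDR, with a limit of 2. Aligner, peak caller and versions: not given in the sources used here.

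Genes and start sites came from Ensembl 115 (BDGP6.54), and sequence from the RefSeq genome of the same dm6 assembly. A gene had a promoter summit if one lay within 500 bp of any annotated start; the strongest was used. Signals were compared within lists, and between replicates only as a ratio beside that of all genes. Intervals are Clopper-Pearson at 95%. No test between conditions was possible, and no set test was run. Named genes are all members in a thresholded list or in no list, the 5 strongest others, and up to 4 listed genes per comparison list; individual values of some of them are not reported here. For the comparison lists, 3 names were matched by synonym, and 1 name (Tor) was not matched and was left out. Summit assignment was tested on simulated data. Python 3.11.15, numpy 2.4.6 and scipy 1.17.1 were used.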

Additional observations from a re-analysis of the deposited data

How the results depend on the processing

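The count of 15 genes and its order against all genes held under windows of 250 and 1000 bp (16), peak intervals, outermost starts, added relatives and left-out gene copies (14). It moved to 52 and 54 in the series ranked lists, 56 and 70 in the replicates' ranked lists, and 6 above the median signal; leaving out 1 replicate gave 12 to 27. The median signal of 130.4 became 101.6 in the further list, 67.3 in both series ranked lists, 25.3 and 35.2 in the replicates' ranked lists, 129.0 at 1000 bp, and 59.6 to 60.1 with 1 replicate left out; the lists' scales differ. The median distance of −76 bp became −46.5 in the further list, −39 in both series ranked lists, −42.5 and −26 in the replicates' ranked lists, −102 above the median signal, and −66 to −43 with 1 replicate left out. Own starts were nearest in 12 of 12 to 24 of 27. The GC difference of 3.83 points became 0.713 with a summit window of 100 bp to either side and −0.561 with flanks 500 bp away, and 2.39 to 6.64 with 1 replicate left out; the cause was not tested. Depth is unknown. No paired analysis was possible because there is 1 group and no result comes from a test.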
